A study of Mus musculus with 2 samples.

Results

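The transcription factor NRF2, encoded by Nfe2l2, its inhibitor Keap1 and 8 genes widely used as readouts of NRF2 activity (Hmox1, Nqo1, Gclc, Gclm, Txnrd1, Srxn1, Slc7a11 and G6pdx) were followed in sorted cells of mouse embryos at E13.5. These 10 genes were picked by symbol from the 32285 gene identifiers of the feature table, and all 10 were detected. The control library came from Isl1-Cre;R26R-eYFP embryos and the mutant library from Isl1-Cre;R26R-eYFP;Pik3caH1047R embryos, so that both carried the Cre driver and the eYFP reporter and the mutant alone carried the activating Pik3ca allele, released by Cre. Each library pooled 3 eYFP+ embryos, from which the upper body above the liver was dissected and eYFP+ cells were sorted for the 10x Genomics 5′ assay. Isl1-Cre marks the cardiopharyngeal mesoderm and other cells with a history of Isl1 expression, so the endothelium sampled here was the part of that lineage, not all endothelium of the region. The question addressed was whether the higher Nfe2l2 level in mutant endothelial cells was accompanied by higher levels of its target genes.

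NRF2 is held in the cytoplasm by KEAP1, which presents it to a CUL3 and RBX1 ubiquitin ligase for degradation. Oxidants and electrophiles modify KEAP1, NRF2 escapes, pairs with a small MAF protein in the nucleus and binds antioxidant response elements, from which BACH1 can displace it. Because control is exerted mainly on the protein, the level of Nfe2l2 RNA and the activity of NRF2 need not move together.

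There was 1 library per genotype, so no test between genotypes was possible, and every interval given is a 95% interval for counting error, which leaves out differences between embryos and preparations. After filtering, 2783 control and 3489 mutant cells remained, with 12 cell barcodes shared by both libraries. Unique molecular identifiers (UMIs) were summed over the cells of a class and divided by the class total, giving counts per 1000000 UMIs (CPM). The endothelial (EC)-like class, in which all 18 EC markers were raised, held 148 control cells with 3300540 UMIs and 695 mutant cells with 13878742 UMIs. By Xist and Y-linked transcripts, 89.9% of control EC-like cells were female-like and 0 of 148 were male-like, which allows up to 2.03%, whereas 33.5% of mutant EC-like cells were female-like and 55.0% male-like, so sex and genotype could be separated only among female-like cells. Pik3ca was at 46.4 CPM in control and 45.2 CPM in mutant EC-like cells (log2 ratio -0.04, interval -0.29 to 0.23). Counts per gene do not separate the mutant allele from the endogenous one. A gene was called higher or lower when its ratio passed 1.5-fold and its counting interval lay clear of 0, among genes with at least 20 UMIs over both libraries. Fewer cells with a transcript and fewer transcripts per cell are not separated by summed counts.

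All 10 genes are annotated as protein coding in GRCm38. Nfe2l2 is at chr2:75675513-75704641 on the minus strand, Keap1 at chr9:21229730-21239361 on the minus strand and Hmox1 at chr8:75093621-75100589 on the plus strand. For 8 of the 10 genes a RefSeq promoter window, from 250 bases before to 50 bases after the start site (GRCm38.p6), was at hand; Hmox1 and Gclc were not among them. The core of the antioxidant response element was searched as TGACNNNGC on either strand. It occurred in 5 of the 10 windows of these 8 genes, against 12.4% of all 32851 windows. The 5 genes with a match were Nfe2l2 itself, Gclm, Txnrd1 (in 1 of its 3 windows), Srxn1 and G6pdx. The stretches around each match are shown with the core in capitals, read 5′ to 3′ on the strand of the gene. Binding of NRF2 to them was not tested.
Nfe2l2, chr2:75704875-75704913, minus strand: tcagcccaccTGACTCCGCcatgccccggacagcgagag
Gclm, chr3:122245403-122245451, plus strand: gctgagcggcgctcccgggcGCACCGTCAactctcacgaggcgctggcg
Txnrd1, chr10:82859094-82859142, plus strand: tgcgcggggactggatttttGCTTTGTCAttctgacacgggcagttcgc
Srxn1, chr2:152105532-152105573, plus strand: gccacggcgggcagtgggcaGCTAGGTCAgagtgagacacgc
G6pdx, chrX:74428909-74428957, minus strand: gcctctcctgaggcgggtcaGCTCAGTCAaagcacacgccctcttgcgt
In Gclm, Txnrd1, Srxn1 and G6pdx the capitals show the core as read on the opposite strand. The Srxn1 window also held 2 copies of the AP-1 type element TGANTCA, which was present in 7.81% of all windows; in each stretch below it is in capitals.
Srxn1, chr2:152105402-152105448, plus strand: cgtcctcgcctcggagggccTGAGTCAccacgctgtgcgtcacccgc
Srxn1, chr2:152105459-152105505, plus strand: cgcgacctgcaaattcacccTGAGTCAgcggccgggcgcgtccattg
A match describes these letters only, and the windows of Keap1, Nqo1 and Slc7a11 held none of the core. The search took TGAC alone, so a stretch that begins with TGAG did not count as a core on that strand. Both AP-1 type elements of Srxn1 begin with TGAG as shown. On the opposite strand they begin with TGAC, but the letters that follow did not match the core. The core match of Srxn1 lay after the start site.

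In EC-like cells Nfe2l2 was higher in the mutant library, but of its 8 targets only Hmox1 was clearly higher with it. Nfe2l2 had 172 control UMIs (52.1 CPM) and 1323 mutant UMIs (95.3 CPM), a log2 ratio of 0.87 (0.64 to 1.11). Its ratio lay above that of 89.7% of the 14176 genes compared. Keap1, which targets NRF2 for degradation, was at 37.3 and 32.4 CPM (log2 ratio -0.20, -0.49 to 0.10). Hmox1, the heme-degrading enzyme heme oxygenase 1, had 107 control UMIs (32.4 CPM) and 1823 mutant UMIs (131 CPM), a log2 ratio of 2.02 (1.74 to 2.31). Nqo1, a quinone reductase and a standard marker of NRF2 activity, was also called higher, from 1.21 to 3.46 CPM (log2 ratio 1.51, 0.06 to 3.45), but the control level rested on 4 UMIs. The call of Nqo1 was lost without integration, and with female-like, G1 or thinned cells the gene had too few UMIs to be compared.

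The 6 other targets in EC-like cells were not called in either direction. Gclc and Gclm encode the catalytic and modifier subunits of glutamate-cysteine ligase, the first enzyme of glutathione synthesis. Gclc was at 31.8 and 34.3 CPM (log2 ratio 0.11, -0.20 to 0.43). With scaling by totals, Gclm was lower in the mutant, at 64.5 and 51.5 CPM, with an interval below 0 (-0.55 to -0.10). Its log2 ratio of -0.33 did not reach 1.5-fold. The upper bound, -0.0974 before rounding, passes 0 with scaling by edgeR's TMM factor (a shift of 0.123). It also does so with scaling by the median ratio of genes (0.0997), so the direction depends on the scaling. Txnrd1, the cytosolic thioredoxin reductase and the target with the most control UMIs (365), was at 111 and 113 CPM, and its interval (-0.14 to 0.19) lay well inside 1.5-fold in both directions. G6pdx, which supplies NADPH through the pentose phosphate pathway, was at 16.7 and 16.9 CPM (log2 ratio 0.02, -0.41 to 0.47). It is X-linked and has an autosomal retrogene copy, so assignment of reads between the copies is uncertain. Srxn1, which reactivates oxidised peroxiredoxins, had 14 and 73 UMIs (log2 ratio 0.31, -0.53 to 1.25). Slc7a11, the cystine importer, had 9 and 35 UMIs (log2 ratio -0.11, -1.20 to 1.13), so for both genes a difference of 1.5-fold was not resolvable at this depth.

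Thus 2 of the 8 targets were called higher, where 9.48% of all genes compared were called higher, and 0 were called lower, where 11.6% of all genes were. The median log2 ratio of the 8 targets was 0.07, beside -0.07 for all genes. Scaling by edgeR's TMM factor in place of totals shifted every EC-like ratio by 0.12 and moved the share of calls that were higher from 44.9% to 57.9%. The UMIs of all 8 targets summed gave 264 and 358 CPM, a log2 ratio of 0.44 (0.33 to 0.54). Hmox1 alone went from 32.4 to 131 CPM, a larger gain than that of the sum. Without Hmox1, the summed level of the targets was therefore not higher in the mutant library.

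**Figure D1:**
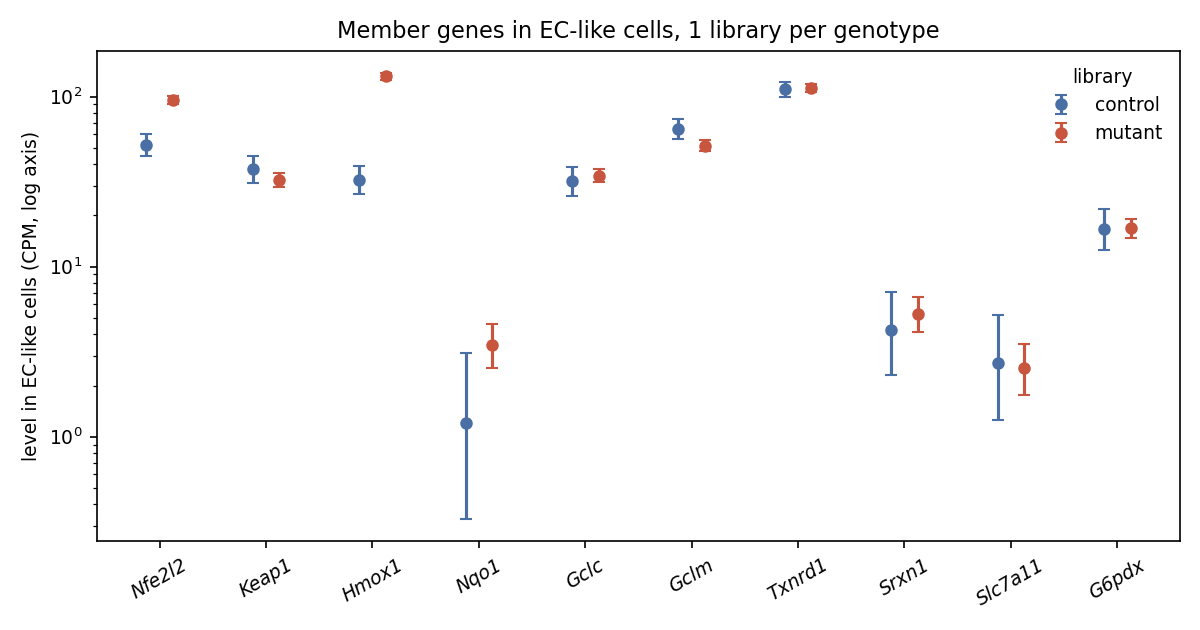
Level of each gene in EC-like cells (CPM, log axis) in the control (blue) and mutant (red) library, with 95% exact Poisson counting intervals. Nfe2l2 and Hmox1 stand clear of their control values, Nqo1 is higher on few UMIs, and the points of Gclc, Txnrd1 and G6pdx nearly coincide.

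Within EC-like cells, the ratios of Nfe2l2 and Hmox1 were above 0 in each of the 3 finer clusters with at least 15 cells per library, though at unequal depth. The largest, finer cluster 1, led by Emcn, Fabp4 and Plvap, held 106 control and 516 mutant cells. In it 3 of 7 lymphatic and 2 of 8 capillary and venous markers were raised. There Nfe2l2 was at 53.2 and 93.3 CPM (log2 ratio 0.81, 0.56 to 1.07) and Hmox1 at 37.2 and 147 CPM (1.98, 1.69 to 2.29). Finer cluster 12, in which 7 of 8 arterial and 5 of 6 endocardial markers were raised, held 21 and 87 EC-like cells. The whole finer cluster had 36 control and 142 mutant cells, and those in other classes were left out here. In the EC-like part the Hmox1 ratio was 1.52 (0.23 to 3.19) on 5 control UMIs, while the interval of Nfe2l2 included 0 (0.68, with a lower bound of -0.06). In that cluster Gclm was called lower, at 131 and 65.4 CPM (interval of the log2 ratio -1.52 to -0.46). In finer clusters 1 and 17 the interval of Gclm included 0, with ratios of -0.20 (-0.46 to 0.07) and -0.10 (-0.89 to 0.76). In finer cluster 17, led by Tll1, 4 of 7 lymphatic and 1 of 6 endocardial markers were raised. It held 21 and 92 cells and was shallow, with a median of 8575 UMIs, against 20080 in finer cluster 1. Its ratios were the highest, 1.77 (0.91 to 2.75) for Nfe2l2 and 3.47 (1.56 to 6.54) for Hmox1, the latter on 2 control UMIs.

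Nfe2l2 and Hmox1 differed in how they related to the sex of the cells. Among female-like EC-like cells, Nfe2l2 was at 53.8 CPM in control (133 cells) and 94.9 CPM in mutant (233 cells), and in the 382 male-like mutant cells it was at 96.7 CPM. The 2 mutant values could not be told apart (log2 ratio of male-like over female-like 0.03, -0.14 to 0.20). Hmox1 was at 32.8 CPM in female-like control cells, 101 CPM in female-like mutant cells and 156 CPM in male-like mutant cells, a male-like excess of 0.63 (0.48 to 0.79) on the log2 scale. Both genes were thus higher in mutant cells of the same sex as the control cells. Gclm was also higher in male-like than in female-like mutant cells (55.3 and 45.5 CPM, log2 ratio 0.28, 0.05 to 0.53), and both values were below the 66.3 CPM of female-like control cells. For the other 7 targets and regulators the interval of this ratio included 0. Male-like and female-like cells came from different embryos of the pool, so sex and embryo cannot be told apart.

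**Figure D2:**
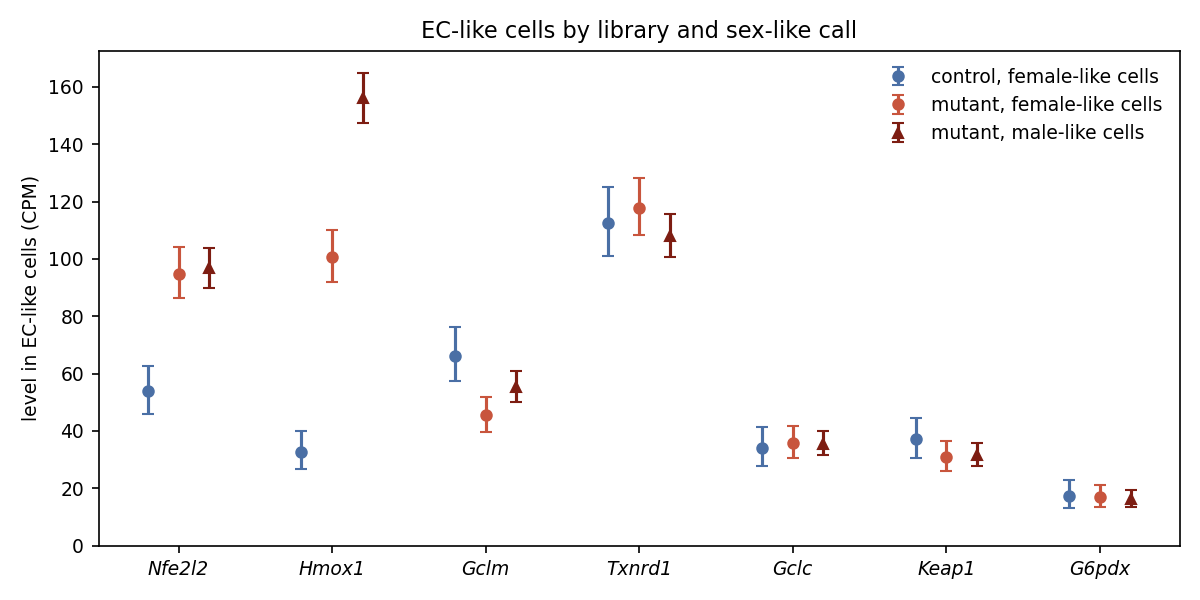
Level in EC-like cells (CPM) of 7 genes with at least 50 UMIs in both libraries, in female-like control, female-like mutant and male-like mutant cells, with 95% counting intervals. Nfe2l2 does not differ beyond counting error between the mutant groups, whereas Hmox1 is at 101 CPM in the female-like and 156 CPM in the male-like cells.

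At the level of single cells, detection of Nfe2l2 was not accompanied by more frequent detection of its targets. Cells were thinned to 5000 UMIs each, which left out 3 control and 32 mutant EC-like cells. Nfe2l2 was then detected in 20.7% of control (14.4 to 28.2%) and 35.9% of mutant cells (32.2 to 39.7%), against 60.8% and 70.6% before thinning. In neuron-like cells, the class with the lowest Nfe2l2 level, thinned shares were 5.95% and 6.37%. Median depth before thinning was 20288 and 17072 UMIs in EC-like cells and 17032 and 13795 UMIs in neuron-like cells. Among mutant EC-like cells, Hmox1 was detected in 34.9% of the 238 cells with an Nfe2l2 UMI (28.8 to 41.3%) and in 30.8% of the 425 cells without one (26.5 to 35.4%). At least 1 target was detected in 75.2% and 75.8% of them. For each of the 8 targets the intervals of the 2 groups overlapped, and at this depth a cell without an Nfe2l2 UMI may still express the gene.

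Marker transcripts of other cell types were counted in EC-like cells of both libraries. The 12 macrophage markers summed to 77.9 CPM in control and 15.8 CPM in mutant EC-like cells, the opposite direction to Nfe2l2 and Hmox1, against 6424 CPM in control macrophage-like cells; C1qa and C1qc were at 0 in control. The 11 erythroid markers summed to 64.5 and 70.5 CPM and the 12 hepatoblast markers to 37.6 and 44.5 CPM. Neuron markers (230 and 400 CPM) and neural crest markers (74.5 and 242 CPM) were higher in mutant EC-like cells, in the same direction as Nfe2l2 and Hmox1. Mesenchyme markers (358 and 281 CPM) and branchial muscle markers (295 and 143 CPM) were lower. In control neuron-like cells the neuron markers summed to 11793 CPM. None of the 12 neuron or 12 mesenchyme markers was at 0 in either library. Their part in the members' ratios was not tested.

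Across classes, Nfe2l2 was most abundant in macrophage-like cells. In the control library its level was 230 CPM there, then 58.9 CPM in mesothelium-like, 52.1 CPM in EC-like and 49.7 CPM in cardiomyocyte-like cells, with overlapping intervals between neighbours from mesothelium-like cells down to 28.3 CPM in branchial muscle-like cells. Neuron-like cells were lowest, at 10.5 CPM, clear of their neighbour. In the mutant library, EC-like cells (95.3 CPM) reached a level whose interval overlapped that of macrophage-like cells (107 CPM) and was clear of the next class, hepatoblast-like cells, present in the mutant only (70.6 CPM). The macrophage-like class was made up differently in each library. Its C1q-led cells stood above the EC-like level in the mutant library too, as given in the next paragraph. With scaling by totals, EC-like cells were the single class of the 9 compared in which Nfe2l2 was called higher. In neuron-like cells the log2 ratio was 0.54 (0.02 to 1.09), from 41 and 120 UMIs, just under the limit of 0.585. TMM scaling (a shift of 0.11) and scaling by the median ratio of genes (0.07) each took it past that limit. Over 12 alternatives it ran from -0.02 to 0.94. In the mutant library, Nfe2l2 was at 10.5 CPM in female-like and 17.9 CPM in male-like neuron-like cells (log2 ratio 0.76, 0.14 to 1.39). The female-like value was thus near the 10.5 CPM of all control neuron-like cells. In the other classes apart from macrophage-like cells the ratio of mutant over control was between -0.31 and 0.18.

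In macrophage-like cells Nfe2l2 was called lower, from 230 to 107 CPM (log2 ratio -1.10, -1.25 to -0.95). This class was made up differently in the 2 libraries. Finer cluster 15, led by complement C1q genes, held 94 control and 41 mutant cells, and finer cluster 11, led by Mpo and Cpa3, known from myeloid progenitors and mast cells, held 79 and 135. Nfe2l2 was at 356 and 193 CPM in cluster 15 (log2 ratio -0.88, -1.10 to -0.67) and at 85.5 and 80.1 CPM in cluster 11 (-0.09, -0.36 to 0.18). Hmox1 went in opposite directions in the same clusters, from 201 to 726 CPM in cluster 15 (1.85, 1.69 to 2.02) and from 49.2 to 26.5 CPM in cluster 11 (-0.89, -1.30 to -0.49). In the C1q-led cells, Nfe2l2 was therefore lower while Hmox1 was higher. Gclm was higher in both, with log2 ratios of 0.78 and 0.61. Over the whole class, mutant levels also differed between female-like and male-like cells. Both finer clusters were pooled for this, although mutant Hmox1 was at 726 CPM in cluster 15 and 26.5 CPM in cluster 11. The share of each finer cluster by sex is not given here, so cell mix and sex cannot be told apart in these values. Hmox1 was at 365 CPM in 57 female-like and 116 CPM in 94 male-like mutant cells (log2 ratio of male-like over female-like -1.65, -1.86 to -1.45), and Gclm at 128 and 81.6 CPM (-0.65, -0.94 to -0.36). The Hmox1 ratio of mutant over control in this class was 1.69 among female-like cells and -0.00082 among G1 cells, again with both finer clusters pooled.

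**Figure D3:**
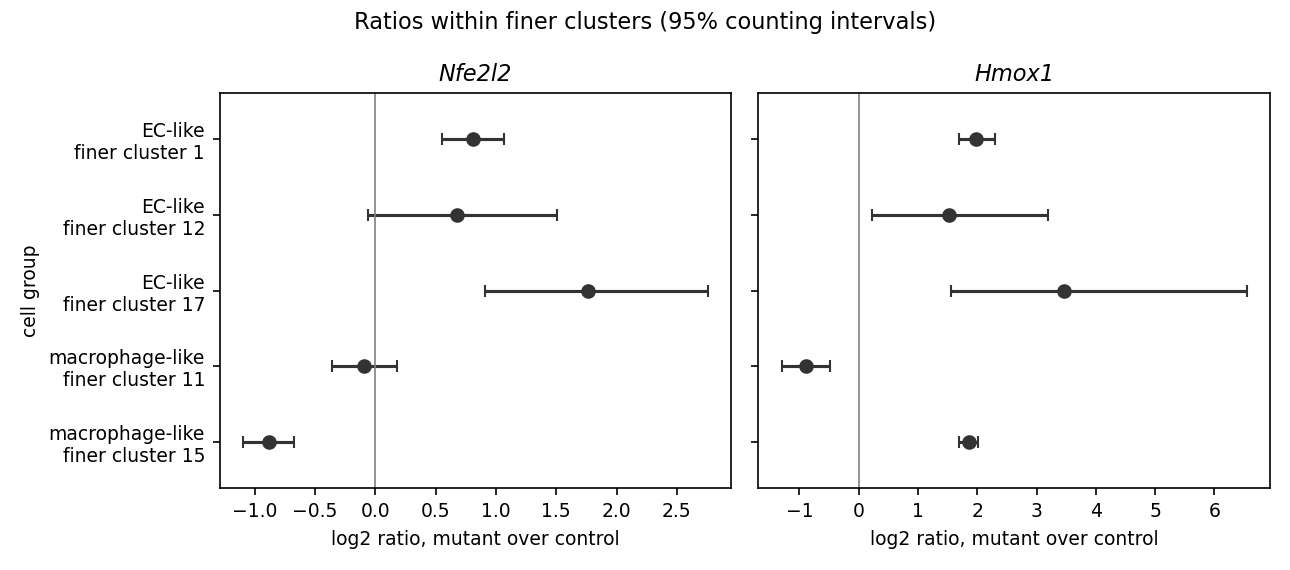
Log2 ratio of mutant over control for Nfe2l2 (left) and Hmox1 (right) within the finer clusters of EC-like and macrophage-like cells, with 95% counting intervals and a line at 0. Both genes lie above 0 in EC-like clusters, though the Nfe2l2 interval of cluster 12 reaches 0, and they part in macrophage-like cluster 15, at -0.88 and 1.85.

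Hmox1 was the target called higher in the most classes, 4 of the 9: EC-like, epithelium-like, neuron-like and branchial muscle-like cells. Its ratio was above 0 in 8 classes, as were those of Gclc and Txnrd1. In epithelium-like cells it had 19 control UMIs (4.67 CPM) and 107 mutant UMIs (19.9 CPM), a log2 ratio of 2.09 (1.38 to 2.88) beside 2.02 in EC-like cells. Nfe2l2 in the same epithelium-like cells was at 42.0 and 46.1 CPM (0.13, -0.15 to 0.42). In neuron-like cells Hmox1 was at 5.37 and 11.5 CPM (1.09, 0.40 to 1.85) and in branchial muscle-like cells at 28.4 and 44.7 CPM (0.66, 0.51 to 0.80). The call in neuron-like cells was lost with thinned cells and that in branchial muscle-like cells with female-like cells only, while those in EC-like and epithelium-like cells held under all 12 alternatives. Mesenchyme-like cells had 20.4 and 30.2 CPM, with a ratio of 0.56 (0.30 to 0.82), just under 1.5-fold. Macrophage-like cells as a whole had a ratio of 0.57 (0.42 to 0.72), also just under it. The interval lay above 0 in 6 of the 9 classes, so the count of 4 depends on the limit. Macrophage-like cells had the highest control level, 130 CPM, and hepatoblast-like cells the highest mutant level, 242 CPM. In the unnamed cluster led by Adh1 and Wnt2 the ratio was -0.15 (-0.74 to 0.40).

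Gclm and Slc7a11 were called in opposite directions in different classes. Gclm was called higher in macrophage-like cells (52.4 and 95.6 CPM, log2 ratio 0.87, 0.64 to 1.10) and cardiomyocyte-like cells (33.5 and 54.4 CPM, 0.70, 0.13 to 1.32). It was called lower in the Adh1-led cluster (40.5 and 22.1 CPM, -0.87, -1.44 to -0.34). Its interval also lay below 0 in mesenchyme-like and epithelium-like cells and, with scaling by totals only, in EC-like cells. Its partner Gclc was called in none of the 9 classes, with ratios from -0.10 to 0.72. Slc7a11, whose cystine feeds the same pathway, had the largest single difference among the members, in branchial muscle-like cells. There it had 397 control UMIs (16.9 CPM) and 74 mutant UMIs (3.77 CPM), a log2 ratio of -2.17 (-2.54 to -1.80), and it was called lower in all 5 finer clusters of this class with at least 15 cells per library, with ratios from -2.80 to -1.72. In the control library the interval of this level was clear of the next class, macrophage-like cells at 4.56 CPM. In epithelium-like cells Slc7a11 was called higher, from 2.95 to 7.99 CPM (1.44, 0.49 to 2.50). Thinning to 5000 UMIs ended the calls of Slc7a11 in epithelium-like cells and of Gclm in cardiomyocyte-like cells and the Adh1-led cluster, with log2 ratios of 0.50, 0.19 and -0.77 in that order. The lower Slc7a11 level in branchial muscle-like cells was called under all 12 alternatives, with ratios from -3.13 among female-like cells to -1.83 among G1 cells. In the mutant library Slc7a11 was at 1.95 CPM in female-like and 5.09 CPM in male-like branchial muscle-like cells (log2 ratio 1.39, 0.52 to 2.35).

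Nqo1 and Srxn1 were rare transcripts, and their calls rest on few UMIs. Nqo1 was called higher in macrophage-like cells (6 and 19 UMIs, log2 ratio 1.54, 0.16 to 3.16) and lower in epithelium-like cells (18 and 10 UMIs, -1.25, -2.53 to -0.06), the latter call being lost with TMM scaling, with classes from marker UMIs and with looser cell limits, although the ratio was between -2.14 and -0.77 under the 9 alternatives that gave a value. Its highest levels among compared classes were in mesenchyme-like cells, 8.90 and 7.89 CPM, and the Adh1-led cluster, 8.36 and 8.30 CPM, where the libraries could not be told apart. Srxn1 was called higher in branchial muscle-like cells (50 and 78 UMIs, 0.90, 0.37 to 1.44), a direction that did not hold when cells were thinned to 5000 UMIs (-0.40). It was called lower in mesothelium-like cells (32 and 4 UMIs, -2.05, -4.01 to -0.55). Txnrd1 and G6pdx were called in none of the 9 classes, and neither was Keap1. Txnrd1 ratios ran from -0.39 to 0.51, G6pdx ratios from -0.56 in macrophage-like cells to 0.49 in epithelium-like cells, and Keap1 ratios from -0.40 to 0.17, below 0 in 8 of 9 classes.

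Counted by class, 0 to 2 of the targets were called higher and 0 to 1 lower. In branchial muscle-like cells 2 of 8 targets were called higher and 1 lower, where 14.1% and 7.9% of all genes were. In epithelium-like cells 2 were higher and 1 lower (8.44% and 9.63% of all genes), and in macrophage-like cells 2 were higher and 0 lower (9.09% and 16.6%). In neuron-like cells 1 of the 7 compared was higher and 0 lower (5.76% and 15.3%). In cardiomyocyte-like cells 1 of 6 was higher and 0 lower (6.8% and 12.8%). The Adh1-led cluster had 0 higher and 1 lower of 7 (5.71% and 8.21%), mesothelium-like cells 0 and 1 of 7 (18% and 9.78%), and mesenchyme-like cells 0 and 0 of 8 (9.34% and 11.6%). Target medians ran from -0.35 in mesothelium-like to 0.41 in cardiomyocyte-like cells.

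**Figure D4:**
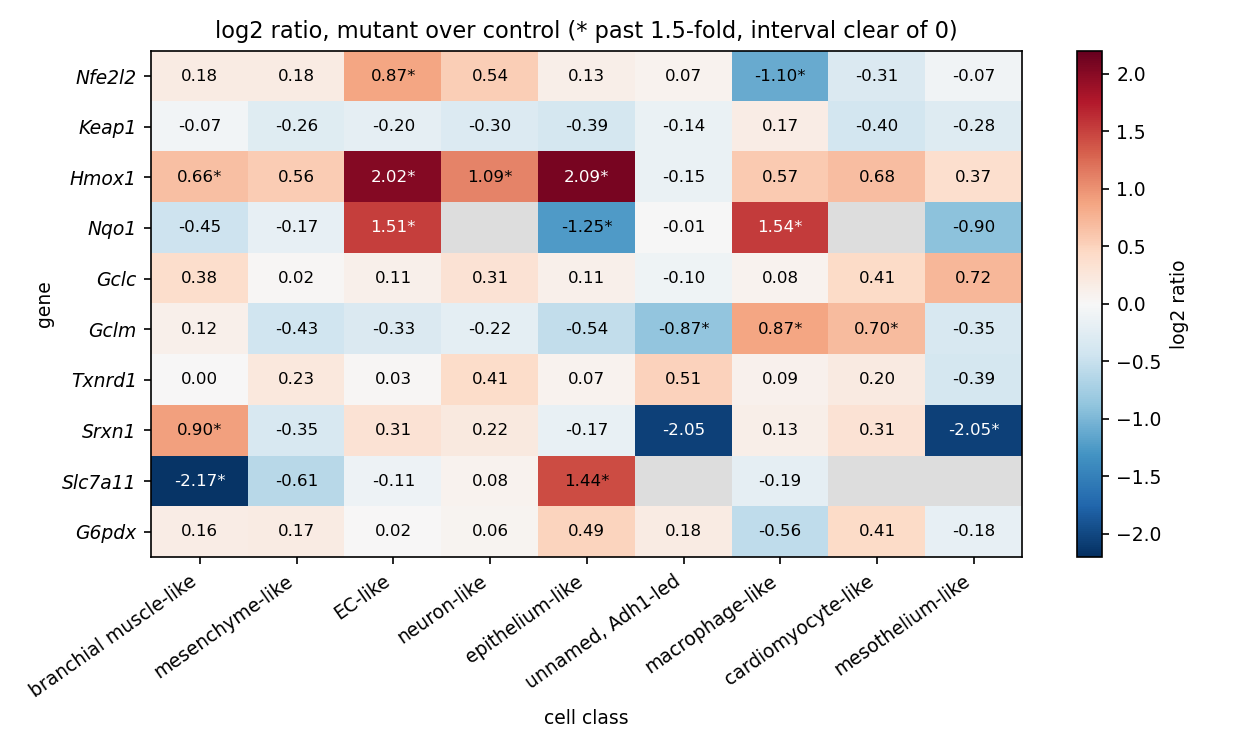
Log2 ratio of mutant over control for each gene (rows) in each of the 9 classes compared (columns), with an asterisk where the ratio passed 1.5-fold with a counting interval clear of 0 and grey where fewer than 20 UMIs were counted. Hmox1 is above 0 in 8 classes, from 0.37 to 2.09, while, with scaling by totals, Nfe2l2 is called in EC-like (0.87) and macrophage-like cells (-1.10) only.

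Other genes of the antioxidant pathways were compared in EC-like cells as 7 lists. Among 17 partners and regulators of NRF2, 4 were called higher and 0 lower, where 9.48% and 11.6% of all genes compared were, with a median log2 ratio of 0.24. Maff, a small MAF partner, was at 15.8 and 47.5 CPM (1.59, 1.18 to 2.03) and Mafk, another, at 10.3 and 16.2 CPM (0.65, 0.13 to 1.22). Bach1, which encodes the repressor that competes with NRF2 at antioxidant response elements and restrains Hmox1, was at 52.4 and 101 CPM (0.95, 0.72 to 1.19). Syvn1, the remaining gene called higher, was at 21.5 and 32.9 CPM (0.61, 0.25 to 1.00). Maff, Mafk, Bach1 and Nfe2l2 itself were thus all higher in the sums of the same class. This did not hold for every gene of the list. Mafg was not called, at 26.1 and 33.5 CPM (0.36, 0.03 to 0.71), and Bach2 was level at 70.9 and 70.2 CPM (-0.01, -0.22 to 0.20). The ligase subunit Rbx1 had the highest control level of this list, 351 CPM, with a ratio of 0.24 (0.14 to 0.33).

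Of 27 glutathione genes compared, 4 were called higher and 2 lower (median 0.15), beside the same 9.48% and 11.6% of all genes. Gsta4, a glutathione transferase that clears the lipid aldehyde 4-hydroxynonenal, was at 9.70 and 51.7 CPM (2.41, 1.90 to 2.97). Chac1, which degrades glutathione, was at 4.24 and 13.2 CPM (1.64, 0.85 to 2.54). Gclc and Gclm, which make glutathione, were not called. Abcc4, an exporter of organic anions, was at 11.5 and 4.18 CPM (-1.46, -2.08 to -0.83), and Gstm1, another transferase, with 79 and 167 UMIs (-0.99, -1.39 to -0.59). Gpx4, the lipid peroxide reductase, had the highest control level, 369 CPM, and a ratio of 0.37 (0.28 to 0.46).

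The 18 thioredoxin and peroxiredoxin genes had 1 called higher and 4 lower (median 0.05), again beside 9.48% and 11.6% of all genes. Sesn2, a stress-induced sestrin, was at 8.18 and 21.8 CPM (1.41, 0.84 to 2.04). Txnip, the thioredoxin-binding protein that also limits glucose uptake, was at 136 and 56.4 CPM (-1.27, -1.44 to -1.10), and Msra, a methionine sulfoxide reductase, at 37.3 and 18.8 CPM (-0.99, -1.30 to -0.67). Prdx1, the peroxiredoxin gene with the highest control level of this list, was level at 721 and 727 CPM (0.01, -0.05 to 0.08). Of 16 genes of NADPH supply, 3 were called higher and 1 lower (median -0.09), beside the same shares. The mitochondrial folate enzymes Mthfd2 (29.7 and 62.1 CPM, 1.06, 0.76 to 1.38) and Aldh1l2 (1 and 55 UMIs, 3.71, 1.17 to 9.04) were among those higher. Rpia, of the pentose phosphate pathway, was at 24.8 and 11.8 CPM (-1.07, -1.46 to -0.67), and Idh2, the gene of this list with the highest control level, at 281 and 209 CPM (-0.43, -0.53 to -0.32).

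In 3 lists none was called. The 8 superoxide and peroxide enzymes had a median of -0.25, with Park7 the most abundant in control (226 and 242 CPM). The 13 heme and iron genes had a median of -0.13, and ferritin heavy chain Fth1 was at 1140 and 929 CPM (-0.29, -0.35 to -0.24). The 12 quinone and aldehyde detoxification genes had a median of -0.02, with Akr1a1 at 419 and 425 CPM (0.02, -0.07 to 0.10).

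**Figure D5:**
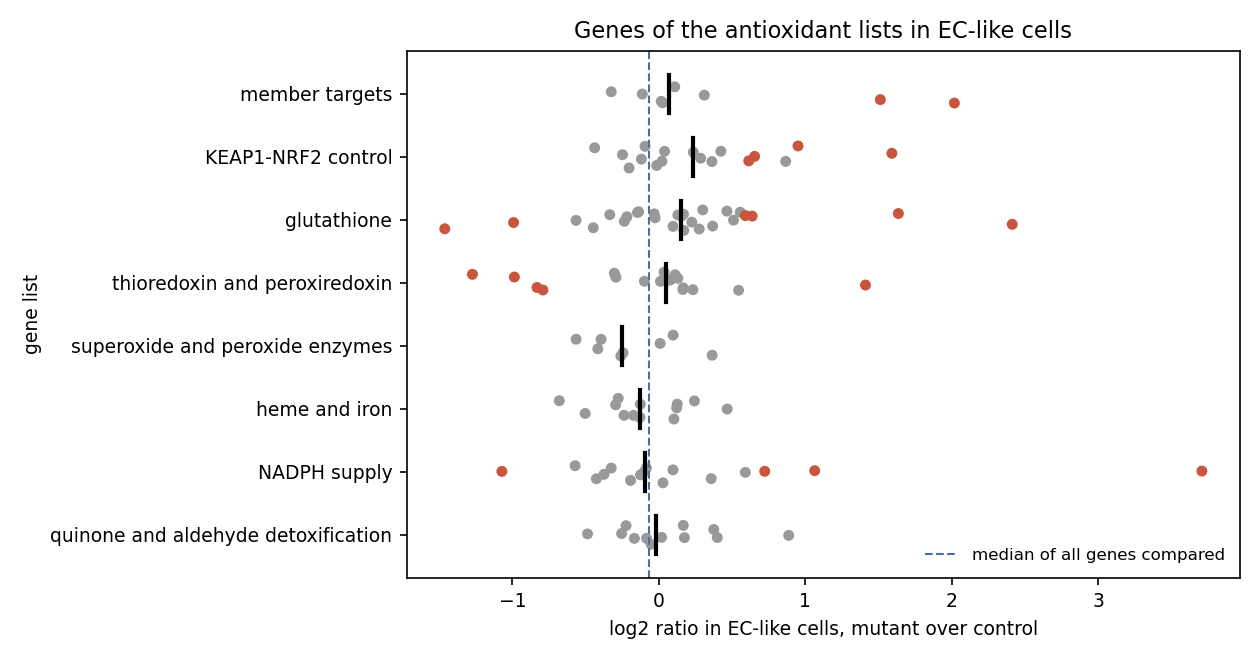
Log2 ratio of mutant over control in EC-like cells for each gene of the 8 targets and of the 7 wider lists, with called genes in red, list medians as black bars and the median of all genes compared (-0.07) as a dashed line. List medians lie between -0.25 and 0.24, and Hmox1 and Nqo1 stand apart from the other targets.

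The genes whose levels most resembled Nfe2l2 over the 18 class-by-library sums, of 14725 genes with enough UMIs, were Zfp36 (Pearson r 0.951), Arhgdib (0.941), Cyba (0.936), Rhog (0.926) and Cmtm7 (0.919). Among the other members the correlation was 0.774 for Hmox1 and between -0.194 and 0.393 for the rest. The points share libraries and differ in depth, and the macrophage-like sums lie far from the others, so these are descriptions.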

How the data were processed

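Single-cell RNA sequencing of eYFP+ cells was done by the authors, who used Cell Ranger 7.1.0 for alignment to GRCm38/mm10. The deposited values are unnormalised UMI counts per gene and cell; whether intronic reads were counted is not given in the sources used here. Reads that match a gene and a near-identical copy cannot be separated in these counts.

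Cells were kept if they had between 2000 and 9000 detected genes (limits excluded) and under 10% mitochondrial UMIs. Libraries held 66935720 UMIs in 4505 deposited cells (control) and 73915525 in 5357 (mutant), and kept cells had medians of 20412 and 16839 UMIs. Seurat 5.3.0 (R 4.3.3) was used for CCA integration and clustering on 2000 variable genes, from which the 129 genes reported as results were held out, with 30 components, 20 neighbours and resolution 0.2 (15 clusters); finer clusters used 0.8. Clusters were named, as X-like, for the list with the largest share of markers raised, if at least 3 were and no other list had more markers among the cluster's 10 leading genes. Classes with at least 50 cells in each library were compared (9). Doublets were kept, since Scrublet (scanpy 1.11.5) called 0 control and 1 mutant cell and so did not work here.

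UMIs were summed per class and library. Intervals, at 95% and for counting error only, were exact Poisson (levels), exact binomial conditional on the total (ratios) or Clopper-Pearson (shares of cells). A gene at 0 in 1 library entered list medians at a floor of 3 UMIs in that sum. Female-like cells had Xist but none of Ddx3y, Uty, Kdm5d and Eif2s3y, male-like cells at least 1 of these and no Xist. Named genes were all 10 members, and from each wider list the gene with the highest control level and the 2 largest called differences in each direction; the 5 genes most like Nfe2l2 were taken among those with at least 200 UMIs. Mafk, Syvn1, Mafg and Bach2 were added after their values were seen. Members and lists were chosen with earlier results of these data known. Intervals and calls were tested on simulated Poisson counts with known folds. These leave out differences between embryos, so they check the calculation only. TMM factors came from edgeR 4.0.16, and the rest from Python 3.11.15 with scipy 1.17.1, numpy 2.4.6, matplotlib 3.10.9 and pandas 2.3.3. Gene positions are those of GENCODE for GRCm38. Alternatives are described in the closing section.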

Additional observations from a re-analysis of the deposited data

Results flagged for a closer look

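For 5 genes, classes were called in opposite directions under the same contrast of mutant over control; none of these differences between classes was tested, since there was 1 library per genotype. Nfe2l2 had a log2 ratio of 0.87 in EC-like and -1.10 in macrophage-like cells. The macrophage-like class was made up differently in the 2 libraries, so its ratios here, for Nfe2l2 and the genes below, do not separate composition from level. Nqo1 had 1.51 in EC-like and 1.54 in macrophage-like cells and -1.25 in epithelium-like cells, each on 4 to 10 UMIs in the library with fewer. Gclm had 0.87 in macrophage-like and 0.70 in cardiomyocyte-like cells and -0.87 in the Adh1-led cluster. Srxn1 had 0.90 in branchial muscle-like and -2.05 in mesothelium-like cells. Slc7a11 had -2.17 in branchial muscle-like and 1.44 in epithelium-like cells.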

How the results depend on the processing

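No paired analysis was possible because each genotype had 1 library. The EC-like log2 ratio of Nfe2l2 was between 0.80 and 0.99 under all 12 alternatives run for it, and that of Hmox1 between 1.62 and 2.14. The median of the 8 targets in EC-like cells was between -0.16 and 0.19 under 14 alternatives. The count of targets called higher in EC-like cells was 1 in place of 2 with female-like cells only, G1 cells only, no integration and thinned cells. The median of the list of NRF2 partners and regulators was 0.36 with TMM scaling and 0.34 with scaling by the median ratio of genes, and over 14 alternatives it ran from 0.016, with thinned cells, to 0.36. The target median in macrophage-like cells was 0.90 among female-like cells, with the finer clusters of this class pooled. Srxn1 in branchial muscle-like cells was -0.40 with thinned cells, against 0.90; the cause was not tested. Among 927 other values for single genes, 869 stayed within the counting interval. Over all genes, TMM scaling moved the share of calls that were higher from 27.3% to 39.0% in neuron-like, from 34.7% to 53.9% in cardiomyocyte-like and from 64.8% to 51.3% in mesothelium-like cells, and scaling by the median ratio gave 55.6% in EC-like and 53.8% in mesothelium-like cells. Depth limits Nqo1, Srxn1 and Slc7a11, and 1 library per genotype limits all of it.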
